A study of Mus musculus with 35 samples.

Results

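Mitochondrial ribosomal proteins were taken as the protein-coding genes whose symbol is Mrpl or Mrps followed by a number. Of the 55421 genes in the count table, 78 met this rule: 49 Mrpl genes, named for the large subunit, and 29 Mrps genes, named for the small subunit. Subunit counts below go by these symbols alone, which need not match the place of every protein. RNA came from the interscapular brown adipose tissue (iBAT) of 35 male C57BL/6J mice aged 9 to 10 weeks, without transgene or injected agent. The cold-exposed mice, 5 per duration, spent 6 hours or 1, 2, 3, 4 or 5 days in an incubator at 6 °C, singly housed in static cages without nesting material. Another 5 mice stayed at colony room temperature, 24 °C, as controls. How the control mice were caged is not given in the sources used here, so effects of temperature and of caging cannot be told apart. Each library came from 1 iBAT pad of 1 mouse, trimmed of the neighbouring white fat.

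Mitochondria keep a ribosome of their own, which translates the few respiratory chain proteins encoded by mitochondrial DNA. Its RNA is transcribed inside the organelle, whereas all of its proteins are encoded in the nucleus, made by cytosolic ribosomes and imported. Brown fat is rich in mitochondria, where uncoupling protein 1 (Ucp1) turns respiration into heat, and the respiratory chain that drives this process needs subunits from both genomes.

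Libraries were made from the 3' ends of polyadenylated RNA, so a count does not scale with transcript length. They held 3846016 to 6047247 reads counted on genes, of which 14898 to 25332 per mouse fell on the 78 genes. A single read is worth 0.165 to 0.26 CPM (counts scaled to a common library size), and CPM below are scaled with TMM factors over all mice. All 6 brown adipocyte markers examined were detected in every mouse, with Ucp1 at 1290.2 to 2814 CPM at room temperature and 6642 to 9116 CPM after 6 hours, although some of the 6, such as Adipoq, also mark white fat cells. Mitochondrial genome genes took 33.6% to 46.2% of all counts. Skeletal muscle markers, all 6 of which were found, summed to 2.32 to 950.3 CPM, and 5 libraries had more than 500 CPM of them: room temperature replicates 1 and 3, 6 hours replicate 2, 1 day replicate 5 and 4 days replicate 5. Calls against room temperature that rest on these libraries are given without them as well for the members named below, but not for other genes.

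Expression varied widely among the 78 genes. One, Mrpl53, had no count in any of the 35 mice, and 695 of its 790 exon bases lie in another annotated gene on the same strand, Gm42688, which had 1 count in all. Among the other 77, the mean level ran from 1.38 CPM for Mrps18b to 365 CPM for Mrpl34, with a median of 43 CPM. There were 73 genes with a mean of at least 10 CPM and 6 with at least 100 CPM. Mrpl34, Mrpl12 (152 CPM) and Mrpl42 (142 CPM) gave the most reads, and Mrps18b, Mrpl23 (1.46 CPM) and Mrps36 (3.5 CPM) the fewest. Between mice of a group, the median coefficient of variation of those 73 genes was 11.3% to 15.7%. The highest value of any of these genes in any group was 59%, for Mrps28 after 1 day. Mrps18b and Mrpl23, with Mrpl53, had too few reads to pass the expression filter, which left 75 genes for each comparison of 2 groups.

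Each duration was compared with room temperature to ask which of these genes change and when. With TMM scaling the rises outnumbered the falls at every duration and were most frequent after 4 and 5 days, whereas with library size alone they did not outnumber them after 6 hours or 1 day (below). After 6 hours, 23 of the 75 genes were higher and 7 lower at a Benjamini-Hochberg adjusted p below 0.05 (edgeR quasi-likelihood test, adjusted over all genes). Of all 10593 genes tested, 21.5% were higher and 21.0% lower. After 1 day, 23 members were higher and 3 lower, against 18.9% and 17.8% of all genes. The 2 day group had 24 members higher and 3 lower, where the whole table had 16.4% and 14.7%. After 3 days, 22 were higher and 5 lower, and the shares over all genes were 18.3% and 15.5%. After 4 days, 33 were higher and 4 lower, beside 19.4% and 18.6% of all genes. After 5 days, 37 were higher and 1 lower, beside 20.2% and 18.6%. As a share of the 75, the higher members made up 30.7%, 30.7%, 32.0%, 29.3%, 44.0% and 49.3% in order of duration. The median log2 fold change of the members was 0.15, 0.15, 0.18, 0.14, 0.24 and 0.34, while that of all genes lay between -0.03 and -0.01. These 6 comparisons share their 5 control mice.

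**Figure D1:**
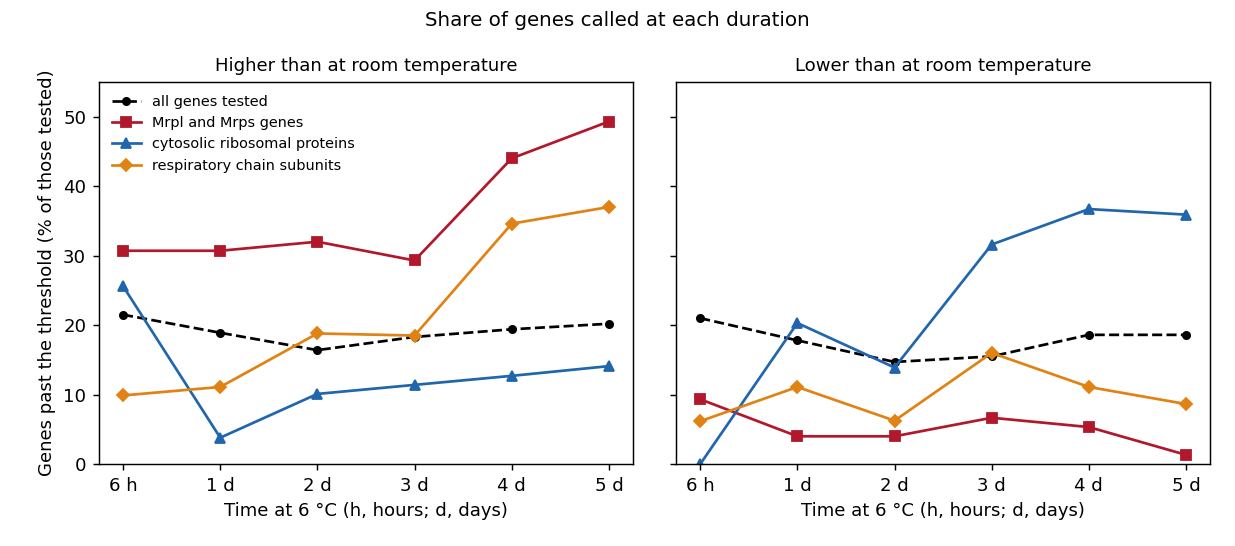
Share of genes past the threshold (% of those tested, y axis) at each duration at 6 °C (x axis), higher than at room temperature on the left and lower on the right, for all genes tested and 3 gene families, with TMM scaling. The Mrpl and Mrps genes lie above the dashed line of all genes in the left panel at all 6 durations, reaching 49.3% after 5 days, and below it in the right panel.

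Both subunits had more genes higher than lower at these times with TMM scaling. Of 47 large subunit genes tested, 12 rose and 3 fell by 6 hours, and 23 rose and 0 fell by 5 days (edgeR; 1 lower at an unadjusted p below 0.05 and 0 by DESeq2). Of 28 small subunit genes, 11 rose and 4 fell by 6 hours, and 14 rose and 1 fell by 5 days. At 6 hours 25.5% of the large and 39.3% of the small subunit genes were higher, and 6.38% and 14.3% lower. Of all genes, 21.5% were higher and 21.0% lower then, so the large subunit share higher was near that of the whole table. By 5 days 48.9% of the large subunit genes were higher and 3.57% of the small subunit genes lower, beside 20.2% and 18.6% of all genes. The median log2 fold change after 5 days was 0.34 for the large and 0.38 for the small subunit. In the test among all 7 groups, 49 of 77 genes differed (63.6%), a share close to the 60.4% of all 12077 genes tested.

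The counts depended on the scaling of the libraries. With library size alone, without TMM factors, the median log2 fold change of all genes moved to between -0.25 and -0.15 for the 6 durations. The members called higher and lower then numbered 9 and 15 after 6 hours, 12 and 12 after 1 day, 12 and 11 after 2 days, 12 and 11 after 3 days, 18 and 8 after 4 days and 19 and 6 after 5 days. Of all genes tested, this scaling called 12.7%, 10.7%, 8.76%, 12.4%, 13.0% and 11.1% higher and 32.1%, 30.2%, 26.1%, 22.4%, 24.2% and 31.2% lower, in order of duration. Those shifts of the whole table are part of the members' values under that scaling. Without the muscle-rich libraries, the TMM counts were 23 and 2, 18 and 2, 25 and 1, 23 and 2, 31 and 2, and 35 and 1. In that fit 17.7%, 15.7%, 14.1%, 16.6%, 18.0% and 18.7% of all genes were higher and 16.0%, 14.6%, 11.8%, 13.2%, 15.3% and 16.3% lower. The counts of lower genes are small and changed by more than 1.5 times with single mice. At 6 hours the count went from 7 to 3 without 6 hours replicate 2, and to 4 without room temperature replicate 1 or 6 hours replicates 1 or 3. At 1 day it went from 3 to 1 without room temperature replicates 1 or 2 or 1 day replicates 3 or 5. At 2 days it went from 3 to 0 without 2 days replicate 2 (edgeR), and to 1 without room temperature replicates 2, 4 or 5 or 2 days replicates 1, 3 or 5. At 3 days it went from 5 to 8 without 3 days replicate 2, to 2 without room temperature replicate 5 or 3 days replicates 1 or 3, and to 3 without room temperature replicates 1, 2 or 4 or 3 days replicate 5. At 4 days it went from 4 to 2 without room temperature replicates 1 or 3 or 4 days replicates 2 or 3, and at 5 days from 1 to 2 without 5 days replicate 3.

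**Figure D2:**
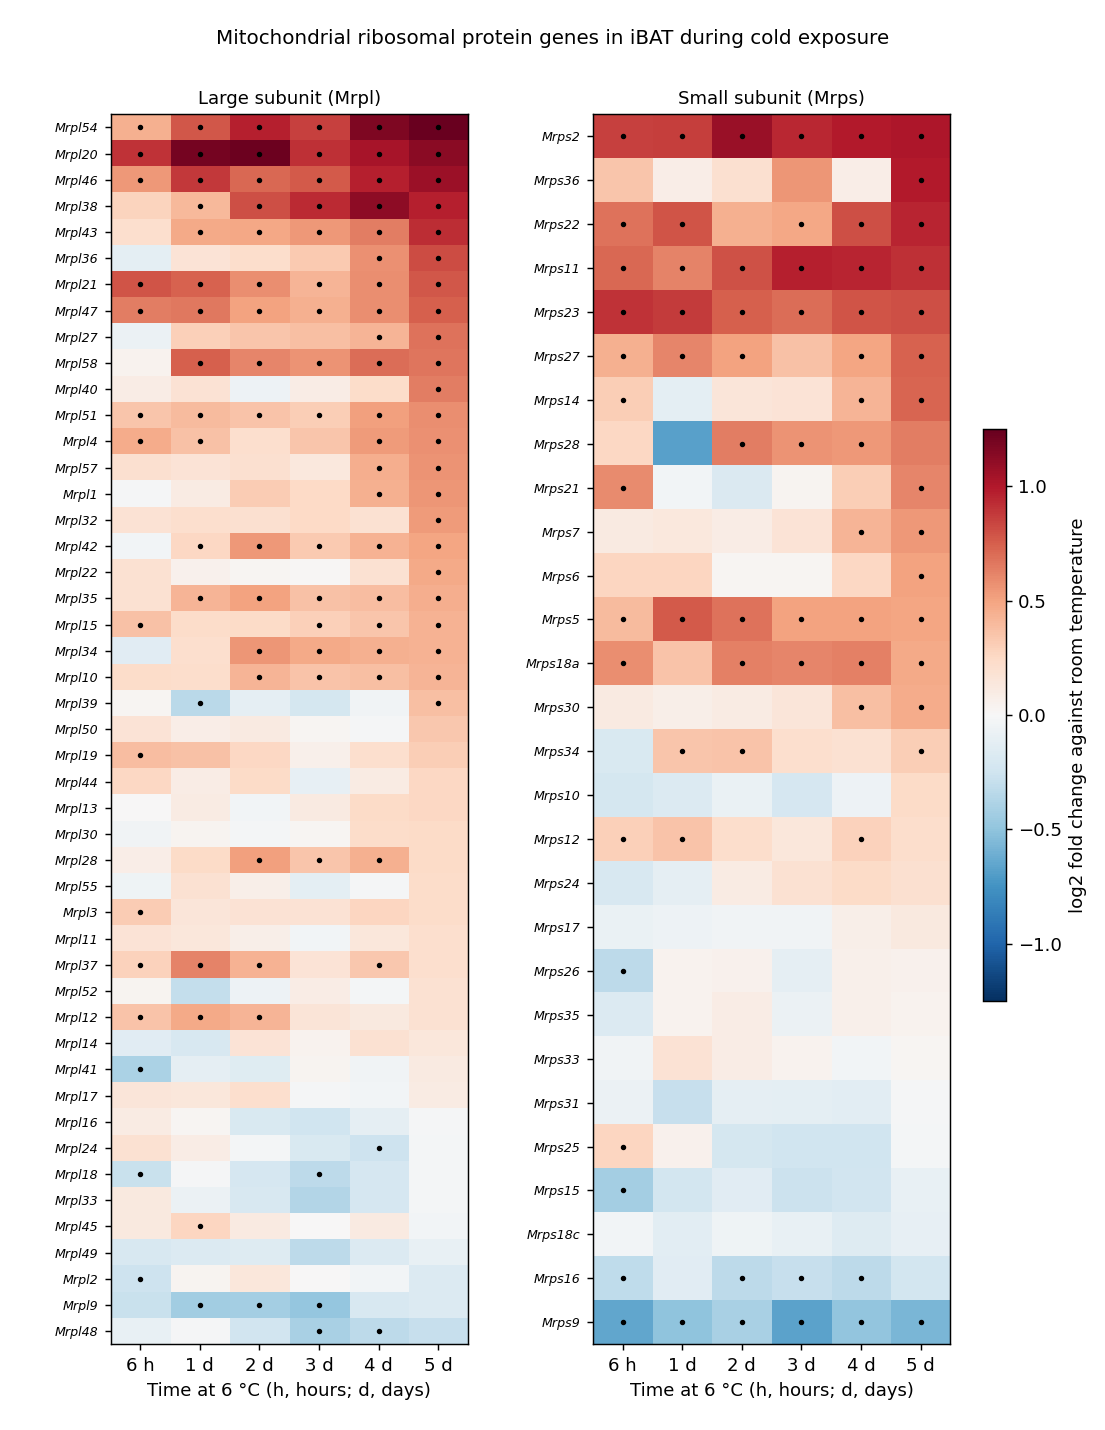
Log2 fold change against room temperature (colour) of the 75 tested genes (rows, ordered by their value after 5 days) at each duration at 6 °C (columns), with a dot where the adjusted p is below 0.05. Mrpl54, Mrpl20 and Mrpl46 head the large subunit, Mrps2 heads the small subunit, and Mrps9 is lower in every column.

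Over the 6 durations, 46 of the 75 genes were higher at 1 or more, 11 were lower at 1 or more, 1 of these did both (Mrpl39), and 19 were called at none. In shares of the 75, these were 61.3% higher at 1 or more, 14.7% lower at 1 or more and 25.3% called at none. Of the 10223 genes of the whole table that were tested at all 6 durations, 37.0%, 37.4% and 28.6% had these patterns. There were 10 genes, from both subunits, that were higher at all 6: Mrpl20, Mrpl21, Mrpl46, Mrpl47, Mrpl51 and Mrpl54, and Mrps2, Mrps5, Mrps11 and Mrps23. Another 8 were higher at 5 of the 6: Mrpl35, Mrpl38, Mrpl42, Mrpl43, Mrpl58, Mrps18a, Mrps22 and Mrps27. Being higher at all 6 was found for 13.3% of the members and 6.67% of all genes, and being higher at 5 of the 6 for 10.7% and 4.39%. Mrps9 alone was lower at all 6, and with library size alone Mrps16 was as well. With TMM scaling 6.08% of all genes were lower at all 6, against 1.33% of the members.

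Mrpl20, on chr4:155802878-155809975 (GRCm38, + strand), rose the most in the first 2 days. Its level was 28.5, 32.4, 40.6, 41.5 and 50.7 CPM in the control mice, and 84.8, 88.5, 90.7, 94.8 and 96.7 CPM after 2 days. Every cold-exposed mouse, at any duration, lay above the highest control. The rise was already present after 6 hours (log2 fold change 0.90 ± 0.14 SE, adjusted p = 5.3e-05) and was 1.23 ± 0.13 after 2 days (adjusted p = 6.9e-06), a factor of 2.34. The small subunit gene Mrps2 (chr2:28468066-28471178, + strand), a relative of bacterial ribosomal protein S2, followed a similar course. Controls had 38.8 to 54.1 CPM and a mean of 47.4 ± 6.79 (SD, n = 5), against 86.6 ± 8.34 CPM after 6 hours and 95.7 ± 9.56 CPM after 5 days. These means correspond to log2 fold changes of 0.85 ± 0.11 SE and 1.01 ± 0.11 SE (adjusted p = 8.5e-06 and 1.7e-06), and here too no cold-exposed mouse fell within the control range. Mrps23 (chr11:88204388-88211507, + strand) had 59.5, 72.4, 73.6, 91.9 and 98 CPM in the controls. Its 6 hour mice had 132, 147, 149, 159 and 162 CPM, and its 5 day mice 116, 126, 137, 146 and 169 CPM. For Mrps23 the largest difference was the first, 0.90 ± 0.12 SE on the log2 scale at 6 hours (adjusted p = 1.3e-05), and the last was 0.81 ± 0.13 SE (adjusted p = 1.1e-04).

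Mrpl46 and Mrps11 are neighbours on chromosome 7 that are transcribed away from each other, and both were higher at all 6 durations. Mrpl46 (chr7:78775236-78783531, - strand), a large subunit protein without a bacterial counterpart, had 19.1 to 24.8 CPM in the controls and 38.3, 43.9, 45, 48.3 and 50.1 CPM after 5 days. Its log2 fold change went from 0.54 ± 0.12 SE at 6 hours (adjusted p = 0.0012) to 1.07 ± 0.12 SE at 5 days (adjusted p = 1.8e-06). Mrps11 (chr7:78783119-78792989, + strand), a relative of bacterial S11, had 9.28, 9.54, 14.3, 14.4 and 16.4 CPM in the controls and 21.5, 21.8, 22.6, 25.8 and 28 CPM after 5 days. Its log2 fold change was 0.72 ± 0.17 SE at 6 hours and 0.91 ± 0.16 SE at 5 days (adjusted p = 0.00269 and 2.6e-04). After 1 day, its mice spread from 10 to 27.4 CPM and overlapped the controls. That 1 day call (0.62, adjusted p = 0.0438) was lost without any of room temperature replicates 1, 2, 4 and 5 or 1 day replicates 2, 3 and 5, with values of 0.48 to 0.78 over all mice left out, and without the muscle-rich libraries (0.67, adjusted p = 0.0687).

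Of the other genes higher throughout, Mrpl21 went from 30.8 ± 1.61 CPM (SD) in the 5 controls to 53.8 ± 9.45 after 6 hours and 53.1 ± 6.06 after 5 days. Mrpl47 went from 49.4 ± 7.28 to 77.9 ± 6.77 and 83.3 ± 8.49 CPM. Mrps5, a relative of bacterial S5, peaked after 1 day at 138 ± 6.51 CPM, from 81.2 ± 15.6 CPM at room temperature (log2 fold change 0.77 ± 0.12 SE, adjusted p = 8.9e-05). Mrpl51 had smaller differences, 0.31 to 0.58 on the log2 scale. Its 3 day call (0.31, adjusted p = 0.0406) was lost without any of room temperature replicates 1, 2, 4 and 5 or 3 days replicates 2, 4 and 5 (0.25 to 0.37 over all mice left out), and its 2 day call without room temperature replicate 4. Under library size alone, Mrpl20, Mrpl46, Mrps2 and Mrps23 were again higher at 6 of 6 durations. Mrpl54 and Mrps11 were then higher at 5, Mrpl21, Mrpl47 and Mrps5 at 4, and Mrpl51 at 2.

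**Figure D3:**
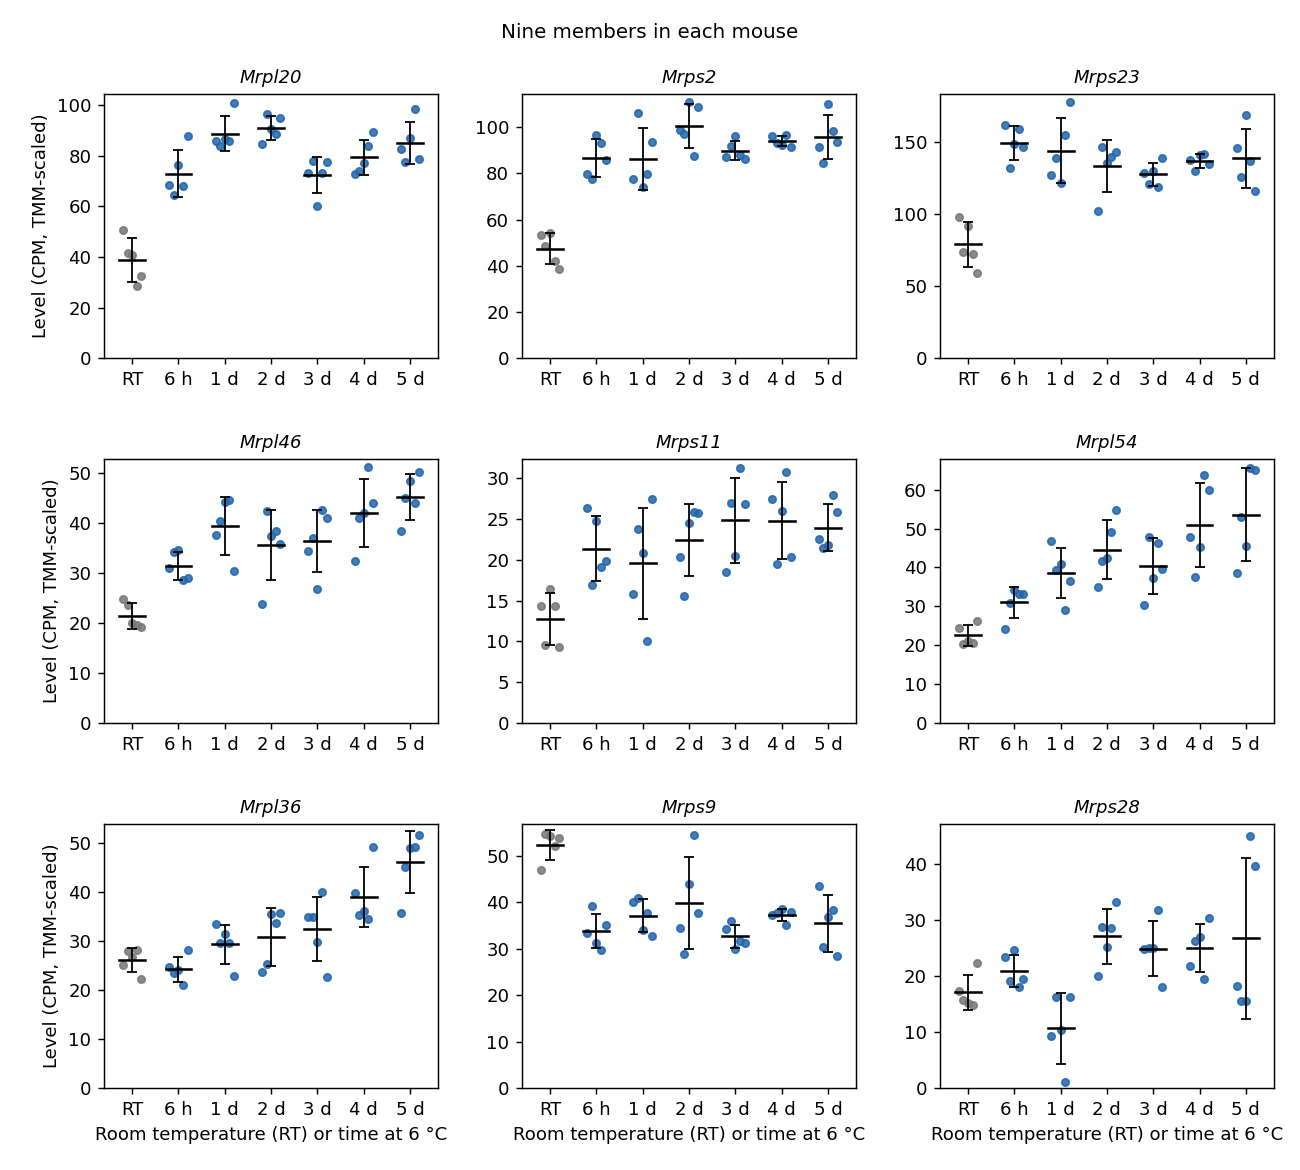
Level (CPM with TMM factors, y axis from 0) of 9 genes in each mouse, at room temperature (grey points) and at each duration at 6 °C (blue points), with the mean as a bar and the SD as whiskers (5 mice per group). Mrpl20, Mrps2 and Mrps23 are above the controls from 6 hours on, Mrpl54 and Mrpl36 are highest after 5 days, Mrps9 is below the lowest control in all but 1 cold-exposed mouse, and Mrps28 has 2 mice at 39.7 and 45.1 CPM after 5 days.

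A second pattern was a level that was higher after 5 days than after 6 hours. Such genes need not rise at each step, and Mrpl34 averaged 437 CPM after 2 days and 399 CPM after 5 days. After 5 days, 20 genes were higher that had not been called after 6 hours, 17 were higher at both times, and 6 that had been higher after 6 hours were not called after 5 days. These were 26.7%, 22.7% and 8.0% of the members, and the same patterns held for 8.35%, 10.5% and 10.5% of all genes. The difference between the 2 durations was tested directly, without the controls. Of 75 members, 20 were higher after 5 days than after 6 hours, beside 19.0% of all genes, a share of 26.7%. None was lower, beside 16.9% of all genes (edgeR); 1 was lower at an unadjusted p below 0.05, and DESeq2 called 20 higher and 0 lower. The count of higher genes was 16 without 5 days replicate 3 and 30 without 5 days replicate 1.

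Mrpl36 showed the largest such difference. This gene (chr13:73328513-73332178, + strand) encodes a very small large subunit protein related to bacterial L36. Its level was 22.2, 25.2, 26.8, 28 and 28.2 CPM in the controls and 21, 23.4, 24, 24.7 and 28.1 CPM after 6 hours, so that these groups overlapped. With TMM scaling this difference did not pass (-0.12, adjusted p = 0.405), and with library size alone it was called lower (-0.31, adjusted p = 0.0468). The level was 34.4 to 49.2 CPM after 4 days, and 35.8, 45, 48.9, 49.2 and 51.7 CPM after 5 days, with all 5 mice above both of the first groups. From 6 hours to 5 days it rose by 0.94 ± 0.13 SE on the log2 scale (adjusted p = 7.5e-06). Mrpl54 had 20.4, 20.5, 21.2, 24.4 and 26.2 CPM in the controls, 24.2 to 34.1 CPM after 6 hours and 38.6, 45.4, 53.1, 65.1 and 65.7 CPM after 5 days. Its increase over room temperature after 5 days, 2.37-fold, was the largest of any member (log2 1.24 ± 0.15 SE, adjusted p = 4.4e-06), and the step from 6 hours to 5 days was 0.80 ± 0.15 SE (adjusted p = 2.3e-04). Mrpl27, whose bacterial relative L27 sits near the peptidyl transferase centre, was at 28.8 ± 3.3 CPM (SD, n = 5) after 6 hours and 47.9 ± 11.3 after 5 days, a difference of 0.75 ± 0.15 SE on the log2 scale (adjusted p = 4.8e-04).

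Mrpl38 had 33.3 to 47.4 CPM in the controls and reached 70.9, 81.4, 83.3, 87 and 88.1 CPM after 4 days, a 2.17-fold increase (adjusted p = 9.3e-07). After 6 hours its level was 43.7 to 52.9 CPM, which did not pass the test (adjusted p = 0.0538) but did without the muscle-rich libraries (0.43, adjusted p = 0.014). Mrpl43 went from 30.5 ± 3.36 CPM (SD, n = 5) at room temperature to 35.7 ± 4.99 after 6 hours and 57.8 ± 8.74 after 5 days. Mrpl58, a peptidyl-tRNA hydrolase built into the large subunit that releases stalled chains, was at 21.5 to 32 CPM after 6 hours, overlapping the controls (25.2 to 30.2 CPM). After 1 day its 5 mice had 40.8, 42.6, 44, 50.8 and 53.7 CPM, all above the controls, and the later groups remained between 37.3 and 49.6 CPM. The difference between 5 days and 6 hours was 0.63 ± 0.13 SE (adjusted p = 4.6e-04). The 2 highly expressed genes Mrpl34 and Mrpl42 behaved alike in that neither was called after 6 hours with TMM scaling, although Mrpl34 was called lower with library size alone (-0.34, adjusted p = 0.0362). Mrpl34 was at 296 ± 30.3 CPM at room temperature and 437 ± 43.1 after 2 days (log2 0.55 ± 0.11 SE, adjusted p = 0.00144), and Mrpl42 at 115 ± 8.71 and 168 ± 19.3 (log2 0.54 ± 0.11 SE, adjusted p = 0.00118). The 1 day call of Mrpl42 (0.26, adjusted p = 0.044) held in only 1 of the 10 fits with a mouse left out, the one without 1 day replicate 4, and not without the muscle-rich libraries (0.30, adjusted p = 0.0825). Its 3 day call (0.33) was lost without room temperature replicate 2 (0.28). With library size alone Mrpl42 was called higher after 2 days only.

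Of the remaining genes higher at 5 durations, Mrpl35 had all 5 mice above every control from 1 day on, and its largest difference was at 2 days (log2 0.50 ± 0.10 SE, adjusted p = 0.00165). Mrps22, a small subunit protein whose loss causes mitochondrial disease in people, was at 18.6 ± 4.93 CPM (SD, n = 5) in the controls and 35.9 ± 8.95 after 5 days (log2 0.95 ± 0.19 SE, adjusted p = 7.8e-04). Its 2 day value, 0.44 ± 0.21 SE, did not pass (adjusted p = 0.127) but did without the muscle-rich libraries (0.70, adjusted p = 0.0353), and its 3 day call (0.48) was lost without any of room temperature replicates 2, 4 and 5 or 3 days replicates 4 and 5 (0.38 to 0.63 over all mice left out). Mrps27, a pentatricopeptide repeat protein of the small subunit, went from 17 ± 2.95 to 28.3 ± 3.42 CPM after 5 days (log2 0.74 ± 0.14 SE, adjusted p = 3.7e-04). Its 2 day call (0.50) was lost without room temperature replicate 2 or 4 or 2 days replicate 3 (0.39 to 0.60). With library size alone, Mrpl35 was called at no duration and Mrps27 at 2.

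Mrpl12, Mrps12 and Mrpl3 were called higher after 6 hours and not after 5 days. Mrpl12 encodes the stalk protein related to bacterial L7/L12, which also binds the mitochondrial RNA polymerase. It had 113, 116, 130.3, 132 and 141 CPM in the controls and 146, 161, 164, 169.9 and 185 CPM after 6 hours, with no overlap. It was higher after 6 hours, 1 day and 2 days (log2 0.36 to 0.47), at none of them with library size alone, and after 3, 4 and 5 days it was at 141 ± 13.8, 138 ± 8.95 and 145 ± 17.1 CPM (SD), values that did not pass the test (adjusted p = 0.235, 0.316 and 0.162). The direct comparison of 5 days with 6 hours also did not pass (-0.17 ± 0.10 SE, adjusted p = 0.204), so a decline between these times was not shown. Mrps12, which lies at the decoding site, was called after 6 hours (0.30 ± 0.11 SE, adjusted p = 0.0398), 1 day and 4 days. The 6 hour call was lost without any of room temperature replicates 2, 3 and 5 or 6 hours replicates 3 and 4 (0.22 to 0.37), the 4 day call without 4 days replicate 3, and the 1 day call without the muscle-rich libraries (0.31, adjusted p = 0.111). Mrpl3, a relative of bacterial L3, passed at 6 hours only (0.32 ± 0.12 SE, adjusted p = 0.0325), and not without any of room temperature replicates 2, 4 and 5 or 6 hours replicates 2 and 3 (0.27 to 0.41). Without the muscle-rich libraries Mrpl3 also passed at 4 and 5 days (0.41 and 0.38). Neither Mrps12 nor Mrpl3 was called at any duration with library size alone.

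Mrps9 (chr1:42851233-42905683, + strand), a relative of bacterial S9, went the other way at all 6 durations. Its level was 46.9, 52.1, 53.7, 54.3 and 54.7 CPM in the controls, 29.8, 31.2, 33.4, 35.1 and 39.2 CPM after 6 hours and 28.4, 30.3, 36.7, 38.4 and 43.5 CPM after 5 days. All mice except 1 at 2 days, which had 54.5 CPM, were below the lowest control. It fell by 0.65 on the log2 scale (± 0.10 SE, adjusted p = 7.5e-05) after 6 hours and by 0.57 (± 0.12 SE, adjusted p = 0.00123) after 5 days. The 2 day call (-0.41, adjusted p = 0.0411) was lost in 8 of 10 fits that left out a mouse, all but those without room temperature replicate 1 and 2 days replicate 4 (-0.53 to -0.31), and without the muscle-rich libraries (-0.44, adjusted p = 0.0666). The other 5 calls held under all of these. Mrps16, related to bacterial S16, was lower at 4 durations, from 72.1 ± 5.75 CPM (SD, n = 5) in the controls to 58.6 ± 5.03 after 6 hours and 57.7 ± 4.88 after 4 days (log2 -0.33 ± 0.095 SE, adjusted p = 0.012 at 4 days). Without the muscle-rich libraries, 1 of the 4 calls was left. Its 3 day call (-0.29) held in only 2 of the 10 fits with a mouse left out, those without room temperature replicate 3 or 3 days replicate 2, and its 2 day call (-0.33) was lost without room temperature replicate 5 or 2 days replicate 2 or 5.

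The other falls were called at fewer durations with TMM scaling, and with library size alone Mrpl9 and Mrps15 were lower at 5 durations and Mrpl48 at 4. Mrpl9 was lower after 1, 2 and 3 days, at 18.2 ± 1.27 CPM (SD, n = 5) after 3 days against 25.6 ± 4.03 in the controls (log2 -0.48 ± 0.13 SE, adjusted p = 0.0087). Its 1 day call (-0.43) was lost without any of room temperature replicates 1, 2 and 4 or 1 day replicates 3 and 5, and its 2 day call (-0.42) without room temperature replicates 1, 2 and 4 or 2 days replicates 1, 2 and 3. Mrps15 and Mrpl41 were lower after 6 hours, by 0.42 and by 0.40 on the log2 scale. Neither was called without the muscle-rich libraries (-0.20, adjusted p = 0.23, and -0.31, adjusted p = 0.131). Mrpl41 was also lost without room temperature replicate 3 or any of 6 hours replicates 1, 2 and 3 (-0.45 to -0.30), and it was higher after 5 days than after 6 hours (0.50 ± 0.15 SE, adjusted p = 0.0119). Mrpl48 was called lower after 3 and 4 days (-0.41 and -0.33), and neither call held without the muscle-rich libraries (adjusted p = 0.158 and 0.162). The 3 day call of Mrpl48 remained in 2 of the 10 fits with a mouse left out, without 3 days replicates 2 or 4. The 4 day call was lost without room temperature replicates 1 or 3 or 4 days replicates 1, 2 or 3. Mrpl39 was lower after 1 day (36.2 ± 4.64 against 45.8 ± 6.38 CPM, adjusted p = 0.0424) and higher after 5 days (59.8 ± 10.8 CPM, adjusted p = 0.0333). The first call held in 3 of 10 fits with a mouse left out (without room temperature replicates 3 or 4 or 1 day replicate 1), and the second in 4 (without room temperature replicates 2 or 5 or 5 days replicates 1 or 5). Neither held without the muscle-rich libraries (adjusted p = 0.0625 and 0.139). With library size alone Mrpl39 was called lower after 1 and 2 days and higher at no duration.

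Related genes with distinct roles did not move as one. Mrps18a, Mrps18b and Mrps18c encode 3 related copies of 1 bacterial protein, S18. Mrps18a was higher at 5 durations, with 29.7 to 35.6 CPM in the controls and 43.1, 47.2, 48.6, 53.4 and 56.5 CPM after 6 hours (log2 0.58 ± 0.10 SE, adjusted p = 2.4e-04). Mrps18c stayed within 22.3 to 34.7 CPM over all 35 mice, was called at no duration, and had log2 fold changes from -0.16 to -0.03, although with library size alone it was called lower after 1 and 5 days. Mrps18b had 0 to 14 counts in a mouse and was not tested. Among other genes with a known position, Mrpl10, at the base of the stalk, was higher from 2 days on (log2 0.36 to 0.42), and its 3 day call was lost without room temperature replicate 2 (0.31). Mrpl44, related to ribonuclease III enzymes, was called at no duration (log2 -0.10 to 0.26). Mrpl45, which faces the inner membrane near the exit tunnel, was called after 1 day only (0.27, adjusted p = 0.0419). That call was lost without any of room temperature replicates 1, 3 and 4 or 1 day replicates 2 and 4, and without the muscle-rich libraries (0.21, adjusted p = 0.19). With library size alone, Mrpl10 and Mrpl45 were called at no duration.

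Of the 73 genes averaging 10 CPM or more, Mrps28 had the highest coefficient of variation within a group. After 1 day its 5 mice had 1.03, 9.32, 10.4, 16.3 and 16.3 CPM, and the lowest of these, replicate 4, had 4 counts. After 5 days the values were 15.5, 15.5, 18.3, 39.7 and 45.1 CPM, so that 3 mice lay in the control range (14.8 to 22.4 CPM) and 2 lay far above it. Neither group passed the test (adjusted p = 0.134 and 0.0644). In the groups between, at 2, 3 and 4 days, Mrps28 was higher (log2 0.54 to 0.64). Without the muscle-rich libraries the 3 and 4 day calls were lost (0.51, adjusted p = 0.0549, and 0.43, adjusted p = 0.0828), and all 3 were lost when the 7 groups shared 1 fit (adjusted p = 0.0788, 0.142 and 0.131). With library size alone Mrps28 was higher at no duration and was called lower after 1 day. Without a filter on counts it was called at every duration from 1 day on, higher at 4 and lower at 1. Mrps36, named as a ribosomal protein but known as a subunit of the 2-oxoglutarate dehydrogenase complex, had 7 to 43 counts in a mouse. It was higher after 5 days (0.99 ± 0.31 SE on the log2 scale, adjusted p = 0.0164), and not without 5 days replicate 4 (0.78, adjusted p = 0.0639). Mrps36 was called at no duration with library size alone.

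Summed over the 78 genes, the level was 3293 to 3639.5 CPM per mouse at room temperature and 3974 to 4945 CPM after 5 days, with every 5 day mouse above every control. Group means were 113%, 119%, 123%, 115%, 123% and 129% of the room temperature mean in order of duration. As a share of all counts, which includes the mitochondrial genome and Gm42418 (7.81% to 16.3% of counts), the same sums came to 97.6%, 102%, 104%, 105%, 111% and 109% of the control share. With those genes left out of the total they came to 104%, 108%, 113%, 110%, 113% and 114%. The direction of the sum after 6 hours thus differed between scalings, whereas from 1 day on the group mean was above the control mean under all of them. In bulk tissue, fewer cells of a type and less RNA per cell cannot be told apart. Sums of cell type markers moved over the same time course. The 6 brown adipocyte markers came to 109% to 137% of their control mean. Of these 6, 1 was higher and 1 lower after 6 hours, 1 and 2 after 1, 2 and 3 days, 1 and 3 after 4 days and 2 and 2 after 5 days, and their median log2 fold change lay between -0.22 and 0.05. The 5 endothelial markers came to 176% after 1 day and 101% after 5 days, the 6 macrophage markers to 198% after 3 days, and the 5 proliferation markers to 572% after 4 days. Of the endothelial markers 3 were higher and 0 lower after 1 day, and 0 and 1 after 5 days. Of the macrophage markers 4 were higher and 0 lower after 3 days. Only 3 proliferation markers could be tested after 4 days, all 3 higher, and the control sum was 6.74 CPM. The 4 white adipocyte markers came to 49.6% after 6 hours and 7.33% after 2 days, and the 5 erythroid markers reached 182% after 5 days. Of 3 white adipocyte markers tested, 2 were lower at both times and 1 was not called (log2 0.26 and -0.17). Of the erythroid markers 3 were higher and 0 lower after 5 days. The 5 stromal progenitor markers stayed between 73.3% and 101%, the 4 Schwann cell markers between 64.7% and 90.8%, and the 3 B cell markers summed to at most 1.98 CPM. All markers on these lists had counts. Their part in the changes of the ribosomal protein genes was not tested.

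**Figure D4:**
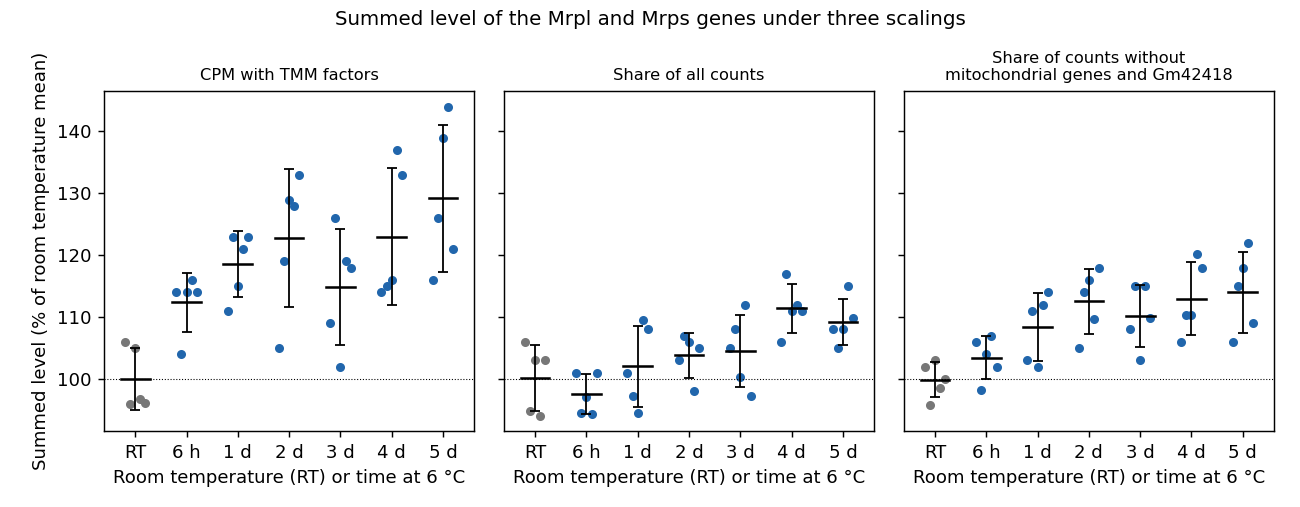
Summed level of the 78 genes in each mouse as a percentage of the room temperature mean (y axis) at room temperature and at each duration at 6 °C (x axis), under 3 scalings (panels), with the mean as a bar and the SD as whiskers (5 mice per group). With TMM factors the 5 day mice lie between 116% and 144%, and as a share of all counts between 105% and 115%.

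The other parts of the mitochondrial ribosome were examined as separate lists, with TMM scaling only. Results with library size alone are not given for them or for the lists in the paragraphs that follow. Of 5 ribosomal proteins with other symbols, Ptcd3 rose at 6 hours (log2 0.82 ± 0.18 SE, adjusted p = 0.0016) and at 5 days (0.61 ± 0.18 SE, adjusted p = 0.013), Aurkaip1 rose at 5 days (0.51 ± 0.11 SE, adjusted p = 0.00103), and Dap3, Chchd1 and Gadd45gip1 were not called at either time. The 2 ribosomal RNAs, which are made from mitochondrial DNA, were both higher after 6 hours with TMM scaling. As a share of all counts, the mitochondrial genome genes together averaged 39.9% in the controls and 42.2% after 6 hours, 106% of the control share. mt-Rnr1, the small subunit RNA, had 47358 to 56996 CPM in the controls and 64722 to 77176 CPM after 6 hours (log2 0.40 ± 0.092 SE, adjusted p = 0.0019). mt-Rnr2 had 170411 to 199841 and 218599 to 244752 CPM (log2 0.32 ± 0.086 SE, adjusted p = 0.00675). After 1 day 1 of the 2 was called, and from 2 days on edgeR called none; no unadjusted p was below 0.05 there, and DESeq2 called 1 after 5 days. A kit that primes on poly(A) reads these RNAs through their short tails or internal adenines, so their counts need not follow their amount.

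Among mitochondrial translation factors, 5 of 12 tested rose and 2 fell by 6 hours, and 5 rose and 1 fell by 5 days. As shares these were 41.7% and 16.7%, then 41.7% and 8.33%. Of all genes tested, 21.5% were higher and 21.0% lower after 6 hours, and 20.2% and 18.6% after 5 days. The elongation factor Gfm1 rose from 54 ± 2.33 CPM (SD, n = 5) to 90.9 ± 5.51 and 103 ± 10.8 CPM at those times. The initiation factor Mtif2 was lower at 6 hours (-0.52 ± 0.13 SE, adjusted p = 0.003) and higher at 5 days (0.37 ± 0.11 SE, adjusted p = 0.0153), and the formyltransferase Mtfmt was lower at 5 days (-0.73 ± 0.23 SE, adjusted p = 0.0161). Of 20 mitochondrial aminoacyl-tRNA synthetase and amidotransferase genes, 3 rose and 4 fell by 6 hours, and 5 rose and 0 fell by 5 days (edgeR; 1 lower at an unadjusted p below 0.05 and 1 by DESeq2). Cars2, which charges the cysteine tRNA, had the largest rise among them, from 19.1 to 27.9 CPM in the controls to 272 to 512 CPM after 6 hours and 89 to 130.2 CPM after 5 days (log2 4.04 ± 0.19 SE and 2.35 ± 0.13 SE, adjusted p = 6.8e-11 and 7.5e-10).

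Of the ribosome assembly factors, 7 of 21 tested were higher and 1 lower after 6 hours, and 6 of 22 higher and 1 lower after 5 days. These were 33.3% and 4.76%, then 27.3% and 4.55%, beside the 21.5% and 21.0%, then 20.2% and 18.6%, of all genes. Fastkd2, which binds the large subunit RNA, had the largest rise at both times of the factors whose mean reached 5 CPM in either group (log2 1.06 ± 0.18 SE and 0.95 ± 0.20 SE). Of the same factors, Mtg1 had the fall at 6 hours (-0.68 ± 0.17 SE) and Ddx28 that at 5 days (-0.61 ± 0.23 SE, adjusted p = 0.0422). Ddx28 had 9.0 ± 3.01 CPM (SD) in the controls and 5.9 ± 0.179 after 5 days, with 0 mice below the lowest control. In mitochondrial transcription and RNA processing, 6 of 16 were higher after 6 hours and 6 after 5 days, 37.5% at each time. Trmt10c, of the complex that cuts out tRNAs, had the largest rise at 6 hours (1.38 ± 0.13 SE, adjusted p = 1.4e-07), and the poly(A) polymerase Mtpap at 5 days (0.85 ± 0.12 SE, adjusted p = 3.5e-05). Hsd17b10, another part of that complex, was lower at 5 days (-0.69 ± 0.14 SE, adjusted p = 7.8e-04). Among 6 tested regulators known to act on genes of mitochondrial proteins, Ppargc1a had 45.9 to 86.1 CPM in the controls, 411 to 1008 CPM after 6 hours and 169 to 334 CPM after 5 days. Esrra was higher at both times (log2 0.78 ± 0.10 SE and 0.41 ± 0.10 SE), Gabpa at 5 days (0.48 ± 0.12 SE, adjusted p = 0.00499), and Ppargc1b was lower at 5 days (-0.46 ± 0.11 SE, adjusted p = 0.00391). Nrf1 and Yy1 were not called at either, and Myc, with at most 7.62 CPM in a mouse, was not tested.

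The cytosolic and respiratory chain families, like the lists above, are given with TMM scaling only. TMM factors over all mice averaged 1.12 in the controls, 0.974 after 6 hours and 0.955 after 5 days. A lower factor gives a higher CPM from the same counts, and how far the calls of these families depend on it is not given here. Ribosomal proteins of the cytosol gave other counts. Of 78 tested after 6 hours, 20 were higher and 0 lower (edgeR; 0 lower at an unadjusted p below 0.05 and 0 by DESeq2). The share higher was 25.6%, and of all genes 21.5% were higher and 21.0% lower. After 1 day, 3 of 79 were higher and 16 lower (3.8% and 20.3%), beside 18.9% and 17.8% of all genes. After 5 days, 11 of 78 were higher and 28 lower (14.1% and 35.9%), beside 20.2% and 18.6% of all genes. The median difference of the cytosolic genes after 5 days was -0.18 on the log2 scale. Between 6 hours and 5 days, 37 of these 78 genes fell and 2 rose (47.4% and 2.56%), where 0 of the mitochondrial ribosomal proteins fell and 20 rose. Of all genes, 16.9% fell and 19.0% rose between these times. Among called cytosolic genes whose mean reached 5 CPM in either group, the largest rises were Rpl13a at 6 hours (log2 1.29 ± 0.18 SE) and Rpl39l at 5 days (1.98 ± 0.40 SE). Both had low levels. Rpl13a went from 6.64 ± 1.26 to 16.4 ± 3.14 CPM (SD). Rpl39l went from 2.13 ± 0.839 to 8.34 ± 5.15 CPM, with 4 mice above the highest control. The largest fall was that of Rpl9 at 5 days (-0.62 ± 0.091 SE). Nuclear-encoded subunits of the respiratory chain had 8 of 81 genes higher and 5 lower after 6 hours (9.88% and 6.17%). After 5 days 30 were higher and 7 lower (37.0% and 8.64%). Between those times 30 rose and 3 fell (37.0% and 3.7%). Those with the largest changes were Sdhd, higher at 6 hours (log2 0.42 ± 0.15 SE), Atp5s, lower at 6 hours (-1.05 ± 0.29 SE), Ndufs5, higher at 5 days (1.00 ± 0.15 SE), and Cox6a2, lower at 5 days (-1.23 ± 0.43 SE). Cox6a2 had 12.7 ± 8.02 CPM (SD) in the controls and 5.38 ± 1.51 after 5 days, with 0 mice below the lowest control. Its value without the muscle-rich libraries is not given here. Cox6a2 is the muscle and heart form of its subunit, and the summed muscle markers were at 42.6% of their control mean after 5 days. Their part in this difference was not tested. The median log2 fold change of the respiratory chain genes after 5 days was 0.21, against 0.34 for the mitochondrial ribosomal proteins. No test of these lists against each other was made, and they share the same mice.

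The 78 genes lie on 17 chromosomes, with 1 to 11 on each. Exons of 33 of them overlap another annotated gene, 8 on the same strand and 28 on the opposite strand. The strand setting used for counting is not given in the sources used here, so reads of such pairs may not be told apart. The overlaps were longest in proportion for Mrpl53 (above), Mrps25 with Nr2c2 (69.8% of its exon bases) and Mrps34 with Mapk8ip3 (63.4%). Mrpl46 and Mrps11 share 173 exon bases on opposite strands, 12.2% of those of Mrpl46. A protein-coding gene on the other strand started within 1000 bases and ran away from the start of 33 members. Besides the pair Mrpl46 and Mrps11, the partners were 31 genes outside the family. After 5 days, 16 of these 31 members were higher, and among their partners 2 were higher, 9 were not called, 1 was lower and 4 were not tested. Of the 25 partners tested in all, 24.0% were higher and 16.0% lower after 5 days, beside 20.2% and 18.6% of all genes. Mrpl54 and Apba3, whose starts are 26 bases apart, were both higher (Apba3 by 0.80 ± 0.11 SE on the log2 scale), as were Mrps27 and Ptcd2, 81 bases apart (Ptcd2 by 0.83 ± 0.11 SE). Mrpl51 and its partner Ncapd2, a condensin subunit used in mitosis, went apart after 6 hours, at 0.35 ± 0.094 SE and -1.46 ± 0.18 SE on the log2 scale.

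Promoters of members were examined for 4 motifs of factors known to act on genes of mitochondrial proteins. Windows from 250 bases before to 50 bases after each start were available from RefSeq (GRCm38.p6) for 69 of the 78 genes and for 27025 genes in all. The NRF1 core GCATGCGC, in either orientation, was found in 8 of the 69 members (11.6%) and in 3.05% of all genes. Its 2 orientations overlap in the longer run GCGCATGCGC. The ETS motif CCGGAAGT, bound by GABPA, was found in 12 members (17.4%) and 4.31% of genes, and the YY1 motif AAGATGGC in 12 members (17.4%) and 3.19% of genes. The ERR site CAAGGTCA was found in 2 members (2.9%), Mrps15 and Mrps21, and in 1.76% of genes. GC content is higher in the members' windows (median 58.7%) than in all windows (52.7%), and the motifs differ in GC content as well, so part of these shares can follow base composition, which was not tested. At least 1 motif was present in 31 of the 69, more than 1 kind in 3. Of the 9 genes in the table that were higher at all 6 durations, 2 held one (Mrpl51 and Mrps11), against 29 of the other 60. A match is a description of letters and not evidence of binding.

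Windows of 8 genes are shown 5′ to 3′ on the strand of the gene, with matches to the 4 motifs in capitals. Those of Mrps11 (chr7:78782881-78783180, + strand) and Mrpl46 (chr7:78783040-78783339, - strand) are shown because these divergent neighbours rose together, and their windows share 141 bases, chr7:78783040-78783180. RefSeq places the starts of Mrpl46 and Mrpl36 inside the longer gene models given above.
Mrps11: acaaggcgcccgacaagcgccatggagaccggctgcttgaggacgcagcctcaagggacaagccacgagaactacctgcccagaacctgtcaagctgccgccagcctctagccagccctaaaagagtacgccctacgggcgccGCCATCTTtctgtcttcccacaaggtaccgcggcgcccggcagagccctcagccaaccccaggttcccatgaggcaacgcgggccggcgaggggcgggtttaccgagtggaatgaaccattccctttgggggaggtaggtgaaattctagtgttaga
Mrpl46: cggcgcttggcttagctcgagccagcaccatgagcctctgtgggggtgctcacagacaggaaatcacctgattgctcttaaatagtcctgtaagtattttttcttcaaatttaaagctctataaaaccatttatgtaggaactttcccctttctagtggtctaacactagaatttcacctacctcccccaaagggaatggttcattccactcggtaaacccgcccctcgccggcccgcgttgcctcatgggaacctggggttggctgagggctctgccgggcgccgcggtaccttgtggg
Mrps27 (chr13:99344536-99344835, + strand) holds both an ETS and a YY1 match. Mrpl36 (chr13:73330759-73331058, + strand), the gene with the largest difference between 5 days and 6 hours, holds a YY1 match 30 bases before the start. Mrpl32 (chr13:14612988-14613287, - strand) holds the most NRF1 matches, 4 with both orientations counted, and was higher after 5 days only.
Mrps27: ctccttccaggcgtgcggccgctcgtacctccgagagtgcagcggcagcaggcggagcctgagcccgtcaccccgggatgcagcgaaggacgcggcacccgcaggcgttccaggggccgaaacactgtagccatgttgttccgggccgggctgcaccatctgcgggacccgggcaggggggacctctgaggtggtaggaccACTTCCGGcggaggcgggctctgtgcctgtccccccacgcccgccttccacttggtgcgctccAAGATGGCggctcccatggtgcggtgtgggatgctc
Mrpl36: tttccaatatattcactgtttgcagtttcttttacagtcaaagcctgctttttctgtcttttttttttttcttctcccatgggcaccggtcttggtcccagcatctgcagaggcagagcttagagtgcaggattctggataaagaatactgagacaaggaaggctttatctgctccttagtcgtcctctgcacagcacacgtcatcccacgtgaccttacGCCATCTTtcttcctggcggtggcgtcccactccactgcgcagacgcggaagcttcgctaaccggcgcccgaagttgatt
Mrpl32: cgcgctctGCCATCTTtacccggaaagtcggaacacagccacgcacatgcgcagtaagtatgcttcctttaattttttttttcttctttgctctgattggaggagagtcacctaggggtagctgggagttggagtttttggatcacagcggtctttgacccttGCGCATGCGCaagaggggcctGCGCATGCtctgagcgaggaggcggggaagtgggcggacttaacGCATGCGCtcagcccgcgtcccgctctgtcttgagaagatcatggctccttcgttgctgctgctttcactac
Mrpl20 (chr4:155802628-155802927, + strand) and Mrps2 (chr2:28467816-28468115, + strand) were higher at all 6 durations under both scalings and Mrps9 (chr1:42850983-42851282, + strand) was lower at all 6, and none of the 3 windows holds any of the motifs searched.
Mrpl20: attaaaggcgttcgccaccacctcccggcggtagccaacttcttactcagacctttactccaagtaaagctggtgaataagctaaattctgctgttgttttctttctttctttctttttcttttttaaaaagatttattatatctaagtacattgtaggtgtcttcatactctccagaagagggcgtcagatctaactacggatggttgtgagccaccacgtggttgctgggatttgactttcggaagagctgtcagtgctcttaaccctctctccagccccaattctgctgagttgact
Mrps2: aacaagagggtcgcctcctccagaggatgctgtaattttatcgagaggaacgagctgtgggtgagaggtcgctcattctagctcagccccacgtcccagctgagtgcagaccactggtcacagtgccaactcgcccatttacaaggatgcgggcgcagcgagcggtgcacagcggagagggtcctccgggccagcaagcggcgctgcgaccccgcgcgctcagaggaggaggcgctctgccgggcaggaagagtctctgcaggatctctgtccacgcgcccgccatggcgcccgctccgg
Mrps9: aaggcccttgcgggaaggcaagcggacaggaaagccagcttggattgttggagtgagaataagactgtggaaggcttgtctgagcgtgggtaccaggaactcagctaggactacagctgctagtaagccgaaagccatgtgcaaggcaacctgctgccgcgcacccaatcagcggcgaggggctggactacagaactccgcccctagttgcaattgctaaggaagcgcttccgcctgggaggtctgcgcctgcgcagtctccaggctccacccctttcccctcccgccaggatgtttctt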

How the data were processed

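RNA from iBAT of 35 mice, each a separate animal, was sequenced from the 3' end (QuantSeq). Per the submitters' processing notes, reads were aligned to GRCm38 with STAR 2.6.1d and counted with HTSeq 0.11.2; the counting mode and strand setting are not given in the sources used here. The authors deposited 1 table of raw counts for 55421 genes, without normalization, with 3846016 to 6047247 counts per mouse, so 1 count was 0.165 to 0.26 CPM. Groups follow the labels, 5 mice in each of 7. Symbols were looked up by gene identifier, and 267 identifiers had none. From the counts, edgeR 4.0.16 (R 4.3.3) was used with filterByExpr, TMM factors and the quasi-likelihood F test, fitted for the 2 groups compared on all genes, with Benjamini-Hochberg adjustment at 0.05. SE is the absolute log2 fold change divided by the square root of F. The scripts were tested on simulated 5 day data, where edgeR recovered 69 of 98 genes changed by 1 and 20 of 98 changed by 0.5 on the log2 scale, with 6 false calls among 10783 genes. Named individually were the 3 members with the largest rise and fall among those called in each comparison, those called at 5 or more durations in 1 direction, the 3 with the highest and lowest level, members listed by role, and of each other list the called gene with the largest rise and fall after 6 hours and 5 days. All but the level and role rules needed a mean of at least 5 CPM in either group. Other genes were chosen after their values were seen. A single gene that these rules name is not reported here. The members and all gene lists were chosen with earlier results of these data known. No sample was left out. Between mice of a group, chi-square per gene was at least 5, so none was counted as a duplicate. Alternatives were DESeq2 1.42.0, RLE factors, library size alone, other count filters, 7 groups in 1 fit, the replicate block and leaving out each mouse. Tables and figures used Python 3.11.15 (numpy 2.4.6, pandas 2.3.3, matplotlib 3.10.9).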

Additional observations from a re-analysis of the deposited data

Results flagged for a closer look

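Among the 39 genes named, a mouse stood apart from the other 4 of its group by Dixon's criterion in 16 of 273 groups (5.86%), where chance gives about 1 in 20. Mice above their group were found for Mrpl10 after 5 days (replicate 4, 84.1 CPM), Mrpl20 after 1 day (replicate 5, 101 CPM), Mrpl35 after 2 days (replicate 5, 107 CPM), Mrpl38 after 6 hours (replicate 3, 52.9 CPM), Mrpl44 after 4 days (replicate 4, 22.5 CPM) and Mrpl45 after 5 days (replicate 4, 58.5 CPM). The others above their group were Mrps5 after 5 days (replicate 3, 152 CPM), Mrps16 after 2 days (replicate 3, 68.2 CPM), Mrps18a after 4 days (replicate 4, 64.1 CPM), Mrps27 after 3 days (replicate 2, 27.6 CPM) and Mrps36 after 1 day (replicate 1, 4.47 CPM). Mice below their group were found for Mrpl20 after 3 days (replicate 3, 60.2 CPM), Mrpl34 at room temperature (replicate 2, 243 CPM), Mrpl45 after 2 days (replicate 4, 55.3 CPM), Mrps18a after 5 days (replicate 5, 32.9 CPM) and Mrps23 after 2 days (replicate 1, 102 CPM).

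The direct test of 5 days against 6 hours (edgeR) called 20 members, all higher. Among those named, the log2 differences were 0.94 for Mrpl36, 0.80 for Mrpl54, 0.75 for Mrpl27, 0.71 for Mrpl43, 0.69 for Mrpl38, 0.63 for Mrpl58, 0.57 for Mrpl34, 0.54 for Mrpl46, 0.52 for Mrpl42, 0.50 for Mrpl41 and 0.36 for Mrpl39. That of Mrpl39 was lost without 6 hours replicates 2 or 3 or 5 days replicates 2, 3 or 4 (0.28 to 0.45 over all mice left out).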

How the results depend on the processing

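No named call reversed: of 5175 pairs of a named value and an alternative, 4862 kept their side of the threshold (121 of them uncalled in both, with the other sign), 236 lost a call and 77 gained one. With library size alone, the higher and lower members numbered 9 and 15, 12 and 12, 12 and 11, 12 and 11, 18 and 8, and 19 and 6 from 6 hours to 5 days, and 1 was lower between 5 days and 6 hours. The next 2 alternatives were added after seeing the data. Library size without mitochondrial genome genes and Gm42418 gave 15 higher at 6 hours, 7, 5, 9, 9 and 4 lower from 1 to 5 days, and 1 lower between 5 days and 6 hours. Of all genes tested, this scaling called 15.7% higher at 6 hours and 18.7% to 28.5% lower from 1 to 5 days. Between 5 days and 6 hours it called 20.8% of all genes lower. Without the muscle-rich libraries, 2, 1, 2 and 2 were lower at 6 hours and 2, 3 and 4 days, and 1 between 5 days and 6 hours. Lower members numbered 2, 1 and 1 without a filter (6 hours, 2 and 4 days), 2 with a mean of at least 20 counts (5 days) and 2 with all groups in 1 fit (4 days). Leaving out 1 mouse gave 3 to 6, 1 to 3, 0 to 3, 2 to 8, 2 to 4 and 1 to 2 lower in order of duration, and 0 to 1 between 5 days and 6 hours. The cause was not tested.

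Replicate numbers did not pair the mice: correlations of same-numbered mice ran from -0.188 to 0.144, and 3 of 35 pairs were above 0.1. With the replicate block, 3 members were lower after 3 days and 2 after 4 days, 24 higher after 6 hours and 36 after 5 days, and 9 named calls were lost. Mrps18b, Mrpl23 and Mrpl53 had too few counts to be tested between 2 groups.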
